A study of Homo sapiens with 6 samples.

Results

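KDM3B and H3K9me2 were mapped by ChIP-seq in HCT116 cells, a line established from a human colorectal carcinoma, and the regions described here are those that the authors called on 8q, 10q, 16q and 17q, the chromosome arms on which gains of DNA have been reported for this line. A region was a member when its start lay on hg19 at or after base 46838888 of 8q, 42254936 of 10q, 38335802 of 16q or 25263007 of 17q, up to the end of that chromosome, so position alone chose the members. Of 126184 regions in the 4 deposited lists, 21478 were members, or 17%. They were 2474 of the 17638 KDM3B regions in cells with a scramble shRNA (HCT116/Scrsh, labelled Con), 1278 of the 8046 KDM3B regions in cells with an shRNA that depletes KDM3A together with KDM3B (HCT116/ABsh-1, labelled KD), 2280 of the 11645 H3K9me2 regions in HCT116/Scrsh, and 15446 of the 88855 H3K9me2 regions in HCT116/ABsh-1. Each list came from 1 library, and both populations derive from the same line, so HCT116/ABsh-1 was set beside HCT116/Scrsh without a test. The labels call the treatment siRNA, whereas the study's methods describe shRNA. The authors called 100-bp windows in which a ChIP library exceeded its input library. The 2 input libraries were not analysed here, read depth is unknown, and the number of copies of each arm was not measured in the data used here, so the reported gains could not be checked and their part in the densities below was not tested.

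KDM3B is a histone demethylase that removes methyl groups from lysine 9 of histone H3, and H3K9me2, the dimethylated form, is a mark of silenced chromatin. In colorectal cancer cells KDM3 enzymes are studied for their part in the Wnt pathway, in which β-catenin and TCF factors switch on target genes. A cell line with extra copies of an arm gives more DNA fragments from that arm to a ChIP library and to its input library alike. Published karyotypes of HCT116 describe a duplication inside 10q and unbalanced translocations that carry extra distal 8q and distal 17q. Their breakpoints are not in the files used here. The comparison addressed here is whether regions of each list were denser on these arms than on the other autosomal arms.

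What was called can be seen in the regions of at most 300 bp with the highest score, 1 per arm on 10q, 16q and 17q for KDM3B in HCT116/Scrsh and 1 per arm on 10q and 16q for H3K9me2 in HCT116/ABsh-1. They are shown as hg19 plus-strand sequence with CpG dinucleotides in capitals, because GC content sets how many regions an arm is expected to hold. The KDM3B regions lay in introns of SH3PXD2A on 10q, of MMP2 on 16q and of UNC45B on 17q, and held 6, 9 and 17 CpG dinucleotides at a GC content of 51.7%, 52.0% and 56.0%. The H3K9me2 regions lay in a coding exon of PDZD7 on 10q and between genes upstream of ZNF469 (-716 bp from its TSS) on 16q, and held 22 and 12 at 68.3% and 63.7%. The region on 17q is 200 bp long and the others 300 bp.
KDM3B, HCT116/Scrsh, 10q, chr10:105472701-105473000: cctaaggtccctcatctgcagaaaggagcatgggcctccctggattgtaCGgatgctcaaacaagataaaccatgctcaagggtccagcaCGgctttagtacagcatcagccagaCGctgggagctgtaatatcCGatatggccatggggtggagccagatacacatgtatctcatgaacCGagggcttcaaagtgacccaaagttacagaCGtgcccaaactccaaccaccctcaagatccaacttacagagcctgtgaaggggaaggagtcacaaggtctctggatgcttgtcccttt
KDM3B, HCT116/Scrsh, 16q, chr16:55499001-55499300: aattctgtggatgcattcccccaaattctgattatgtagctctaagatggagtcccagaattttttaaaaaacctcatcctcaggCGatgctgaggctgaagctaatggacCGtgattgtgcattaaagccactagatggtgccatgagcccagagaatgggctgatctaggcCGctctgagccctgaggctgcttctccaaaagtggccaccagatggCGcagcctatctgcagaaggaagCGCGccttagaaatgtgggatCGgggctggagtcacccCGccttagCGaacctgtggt
KDM3B, HCT116/Scrsh, 17q, chr17:33478101-33478300: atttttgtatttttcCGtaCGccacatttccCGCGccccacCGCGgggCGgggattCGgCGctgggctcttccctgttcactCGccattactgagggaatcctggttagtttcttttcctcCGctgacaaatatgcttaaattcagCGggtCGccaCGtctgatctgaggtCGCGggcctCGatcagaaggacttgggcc
H3K9me2, HCT116/ABsh-1, 10q, chr10:102778501-102778800: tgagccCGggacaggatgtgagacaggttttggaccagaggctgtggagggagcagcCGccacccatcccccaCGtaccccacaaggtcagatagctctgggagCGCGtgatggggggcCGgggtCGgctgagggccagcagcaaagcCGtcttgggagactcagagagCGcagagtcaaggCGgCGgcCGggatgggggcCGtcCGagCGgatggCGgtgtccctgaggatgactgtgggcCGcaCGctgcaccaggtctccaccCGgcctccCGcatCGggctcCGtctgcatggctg
H3K9me2, HCT116/ABsh-1, 16q, chr16:88448501-88448800: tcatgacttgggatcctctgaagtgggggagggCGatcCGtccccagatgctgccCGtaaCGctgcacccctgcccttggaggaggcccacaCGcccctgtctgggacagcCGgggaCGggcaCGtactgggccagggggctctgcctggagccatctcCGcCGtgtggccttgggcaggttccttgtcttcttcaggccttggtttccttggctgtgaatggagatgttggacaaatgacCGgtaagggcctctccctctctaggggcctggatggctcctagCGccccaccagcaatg

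The 4 arms together hold 291 Mb of assembled sequence, which is 10.8% of the autosomal total, and they differ from the other 35 autosomal arms in composition. Their GC content was 42.0%, against 40.9% on the 35 reference arms, and they hold 88.4 annotated transcription start sites (TSSs) per Mb, against 78.2. 17q was rich in TSSs, with 165 per Mb and a GC content of 45.3%, whereas 8q had 59.4 per Mb and 39.6%. 16q had 113 TSSs per Mb and 43.9% GC, and 10q had 61.5 per Mb and 41.8%. Densities are therefore given both per assembled base and after standardisation, in which the observed number is divided by the number expected from the reference arms for 10-kb bins of the same GC content and TSS number.

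Regions of all 4 lists were denser on the 4 arms pooled than on the reference arms. KDM3B regions of HCT116/Scrsh numbered 8.50 per Mb on the 4 arms and 6.17 per Mb on the reference arms, a ratio of 1.38 (95% interval 1.32 to 1.44). After standardisation the ratio was 1.18 (1.13 to 1.23, adjusted p = 8.7e-14, two-sided exact binomial test, Benjamini-Hochberg over the 4 lists). KDM3B regions of HCT116/ABsh-1 numbered 4.39 per Mb against 2.77 per Mb, a ratio of 1.59 (1.49 to 1.68), and 1.34 after standardisation (1.26 to 1.42, exact adjusted p = 4.1e-20). The highest pooled ratio among the lists was that of H3K9me2 in HCT116/Scrsh. Its regions numbered 7.83 per Mb against 3.77 per Mb, a ratio of 2.08 (1.98 to 2.17), and 1.82 after standardisation (1.74 to 1.90, exact adjusted p = 6.5e-127). H3K9me2 regions of HCT116/ABsh-1 numbered 53.1 per Mb against 30.3 per Mb, a ratio of 1.75 (1.72 to 1.78), and 1.27 after standardisation (1.25 to 1.29, exact adjusted p = 9.1e-153). These tests treat the regions of a list as independent, which neighbouring regions are not, and the intervals cover counting error only. Single reference arms were also called by this test, 13 to 30 of the 35 in each list after standardisation, so the spread over arms is given beside each arm below.

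Per assembled base, 17q had the densest calls of the 4 arms in each list and 8q was near or below the reference in all lists but H3K9me2 of HCT116/Scrsh. On 17q there were 15.3 KDM3B regions per Mb for HCT116/Scrsh and 8.20 for HCT116/ABsh-1, which were 2.48 and 2.96 times the reference density. H3K9me2 regions on 17q numbered 10.5 per Mb for HCT116/Scrsh and 101 for HCT116/ABsh-1, ratios of 2.79 and 3.32. On 8q the 4 ratios, in the same order, were 0.94, 0.92, 1.75 and 0.85. On 10q they were 1.15, 1.44, 1.74 and 1.23. On 16q they were 1.46, 1.65, 2.62 and 2.89. In the order KDM3B of HCT116/Scrsh, KDM3B of HCT116/ABsh-1, H3K9me2 of HCT116/Scrsh and H3K9me2 of HCT116/ABsh-1, 41%, 38.5%, 46.2% and 41% of all 39 autosomal arms were called denser at an adjusted p under 0.05, and 41%, 38.5%, 41% and 53.8% were called sparser. Against that background 3, 3, 4 and 3 of the 4 arms were called denser, and 8q was called sparser for H3K9me2 of HCT116/ABsh-1.

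After standardisation 8q was among the 5 highest of the 39 arms in every list. Its ratio was 1.26 for KDM3B of HCT116/Scrsh (1.15 to 1.37), where it ranked 3 of 39, and 1.28 for KDM3B of HCT116/ABsh-1 (1.12 to 1.45), where it ranked 5. For H3K9me2 it was 2.12 in HCT116/Scrsh (1.95 to 2.29), rank 2, and 1.48 in HCT116/ABsh-1 (1.42 to 1.54), rank 5. On 17q the KDM3B ratios were 1.34 in HCT116/Scrsh (1.25 to 1.44) and 1.53 in HCT116/ABsh-1 (1.39 to 1.69), ranks 2 and 1. The H3K9me2 ratios of 17q were 1.81 (1.66 to 1.96) and 1.29 (1.26 to 1.33), ranks 6 and 8. 16q and 10q were less uniform between the antibodies. 16q was at the reference for KDM3B, with 0.99 in HCT116/Scrsh (0.89 to 1.10) and 1.09 in HCT116/ABsh-1 (0.94 to 1.25), and above it for H3K9me2, with 1.92 (1.74 to 2.11) and 1.51 (1.46 to 1.56). 10q was above the reference for KDM3B of HCT116/ABsh-1, with 1.34 (1.20 to 1.48), and for H3K9me2 of HCT116/Scrsh, with 1.54 (1.41 to 1.67). Its ratio was 1.08 for KDM3B of HCT116/Scrsh (0.99 to 1.16) and 0.98 for H3K9me2 of HCT116/ABsh-1 (0.94 to 1.01), neither of which passed the test.

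The standardised ratios of the 4 arms lay inside the range of the 35 reference arms in all lists except 17q for KDM3B of HCT116/ABsh-1. The reference arms ran from 0.54 on 5p to 1.47 on 6p for KDM3B of HCT116/Scrsh, from 0.49 on 5p to 1.48 on 19p for KDM3B of HCT116/ABsh-1, from 0.29 on 8p to 2.21 on 21q for H3K9me2 of HCT116/Scrsh, and from 0.57 on 8p to 1.90 on 21q for H3K9me2 of HCT116/ABsh-1. Their SD on the log2 scale was 0.27, 0.33, 0.76 and 0.38 in the same order. The share of all 39 arms called denser after standardisation was 17.9%, 23.1%, 38.5% and 33.3%, and the share called sparser was 28.2%, 17.9%, 48.7% and 51.3%. Of the 4 arms, 2, 3, 4 and 3 were called denser and 0 sparser. A call by this test was therefore common on arms outside the 4. Measured against the spread over arms, a ratio above 1 by more than 1 reference SD was reached by 8q and 17q for KDM3B of HCT116/Scrsh, by 8q, 10q and 17q for KDM3B of HCT116/ABsh-1, by 8q, 16q and 17q for H3K9me2 of HCT116/Scrsh, and by 8q and 16q for H3K9me2 of HCT116/ABsh-1. Of the 35 reference arms, 3, 2, 4 and 5 reached it in these lists.

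**Figure D1:**
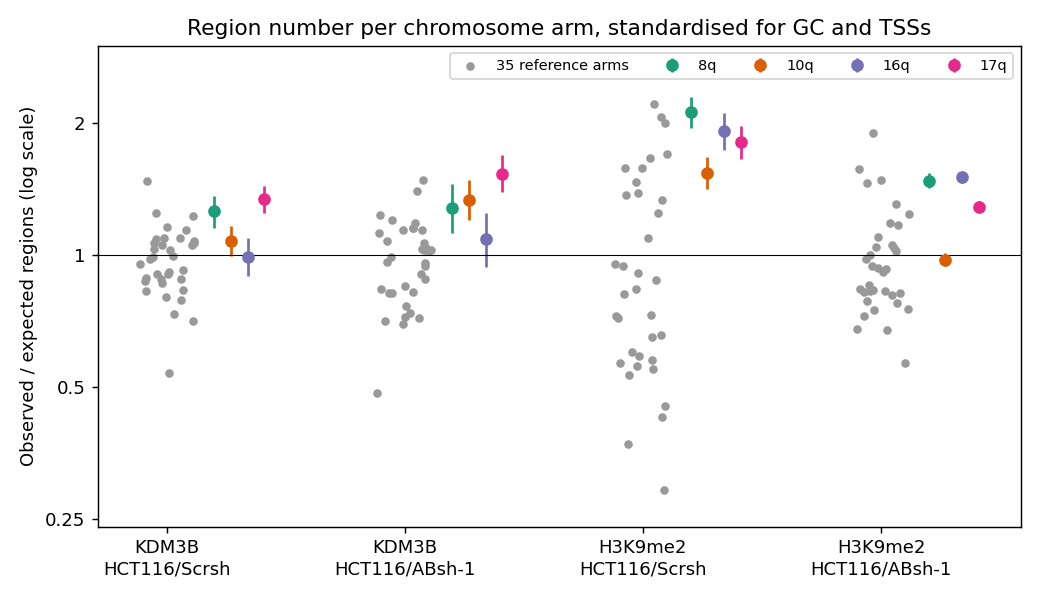
Observed over expected number of regions for each autosomal arm after standardisation for GC content and TSS number, on a log scale, for the 4 lists. Grey points are the 35 reference arms, coloured points 8q, 10q, 16q and 17q with exact 95% intervals. 8q and 17q lay above 1 in each list, from 1.26 to 2.12 on 8q and from 1.29 to 1.81 on 17q, and the reference arms spread most for H3K9me2 of HCT116/Scrsh.

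The short arms of the same 4 chromosomes gave a second reference. H3K9me2 regions of HCT116/Scrsh were 5.43 times as dense on 8q as on 8p (4.10 to 7.33, exact interval), 3.72 times on 10q as on 10p (2.89 to 4.84), 2.51 times on 16q as on 16p (2.06 to 3.06) and 4.56 times on 17q as on 17p (3.42 to 6.19), per assembled base. For H3K9me2 of HCT116/ABsh-1 these ratios lay between 1.46 on 16q and 2.36 on 10q. For KDM3B of HCT116/Scrsh they were 1.20 on 8q, 1.50 on 10q, 0.99 on 16q and 1.38 on 17q. For KDM3B of HCT116/ABsh-1 they were 1.05, 2.07, 1.17 and 1.69, and the intervals of 8q (0.84 to 1.33) and 16q (0.93 to 1.46) held 1. After standardisation 8p was the lowest reference arm in both H3K9me2 lists. Per assembled base it was the lowest for H3K9me2 of HCT116/Scrsh only, at 0.32 times the reference density. The X chromosome lay below the autosomal reference in each list. Its standardised ratios for KDM3B were 0.53 (0.48 to 0.59) in HCT116/Scrsh and 0.41 (0.34 to 0.49) in HCT116/ABsh-1. For H3K9me2 they were 0.49 (0.43 to 0.56) and 0.34 (0.31 to 0.36). The lowest single reference arms had 0.54 and 0.49 for KDM3B and 0.29 and 0.57 for H3K9me2, in the same order. Why X was low was not tested.

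Regions on the 4 arms also carried higher scores, a measure that the choice of arms did not use. The score is a whole number that the authors deposited with each region and whose meaning the sources used here do not give, so it served for ranking within a list and for nothing else. Of the KDM3B regions of HCT116/Scrsh on the 4 arms, 403 were among the top 10% of that list, or 16.3% (Wilson 95% interval 14.9 to 17.8%), against 9.13% on the reference arms. For KDM3B of HCT116/ABsh-1 the shares were 14.9% (13 to 16.9%) and 8.54%. For H3K9me2 they were 15.5% (14.1 to 17.1%) and 8.49% in HCT116/Scrsh, and 15.9% (15.3 to 16.5%) and 8.84% in HCT116/ABsh-1. The pooled share of the 4 arms exceeded that of each of the 35 single reference arms in every list. The highest reference arm reached 12.8%, 13.3%, 15.4% and 15.4% in KDM3B of HCT116/Scrsh, KDM3B of HCT116/ABsh-1, H3K9me2 of HCT116/Scrsh and H3K9me2 of HCT116/ABsh-1. On 17q the share was 18.9%, 15.8%, 18.1% and 18.9%, above all reference arms in each list. On 10q it was 15.7%, 15.2% and 15.8% in the first 3 lists and 9.54% for H3K9me2 of HCT116/ABsh-1, where 10 reference arms were higher.

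**Figure D2:**
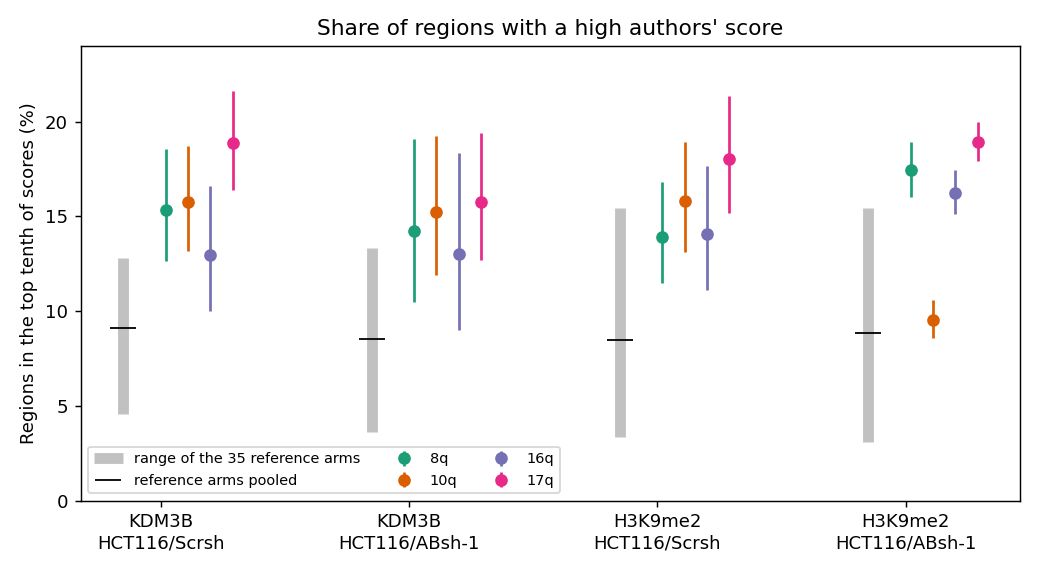
Share of regions whose score was in the top 10% of their list, in percent, for 8q, 10q, 16q and 17q with Wilson 95% intervals, beside the range of the 35 reference arms (grey bars) and their pooled share (black line). 10q for H3K9me2 of HCT116/ABsh-1, at 9.54%, was the one value of the 16 close to the pooled reference share.

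Members were slightly wider than the regions of the reference arms. Regions of a single 100-bp window made up 50.5% of the KDM3B members of HCT116/Scrsh (48.6 to 52.5%) against 54.0% on the reference arms, and 56.3% (53.5 to 59.0%) against 62.3% in HCT116/ABsh-1. The single-window share of H3K9me2 members was 68.4% (66.5 to 70.3%) against 73.6% in HCT116/Scrsh and 37.9% (37.1 to 38.6%) against 41.9% in HCT116/ABsh-1. All 4 shares lay within the range of single reference arms. The mean GC content of the members was 54.1% for KDM3B of HCT116/Scrsh, 56.5% for KDM3B of HCT116/ABsh-1, 53.5% for H3K9me2 of HCT116/Scrsh and 60.5% for H3K9me2 of HCT116/ABsh-1, against 53.6%, 55.7%, 52.8% and 61.6% on the reference arms. The centre lay within 5 kb of a TSS in 57.2% of KDM3B members of HCT116/Scrsh (reference arms 54.8%), 57.4% in HCT116/ABsh-1 (57.2%), 36.2% of H3K9me2 members of HCT116/Scrsh (37.4%) and 52.0% in HCT116/ABsh-1 (54.2%), all inside the range of single arms.

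The calls were not spread evenly along the arms, also after standardisation. Each arm was split at the Mb boundary at which the standardised number of H3K9me2 regions of HCT116/Scrsh changed most, chosen by maximum likelihood at least 5 Mb from the arm ends. This split was chosen after the data were seen and from values, so it is a description with no test. It fell at 67 Mb on 8q, 100 Mb on 10q, 81 Mb on 16q and 44 Mb on 17q of hg19. The piece nearer the centromere is called inner and the other outer.

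On 17q, H3K9me2 regions of HCT116/Scrsh numbered 43 in the inner 18.7 Mb and 544 in the outer 37.0 Mb, with standardised ratios of 0.37 and 2.62. The other lists, which did not set the split, were also higher in the outer piece of 17q. KDM3B went from 1.05 to 1.51 in HCT116/Scrsh and from 1.02 to 1.84 in HCT116/ABsh-1, and H3K9me2 of HCT116/ABsh-1 from 0.63 to 1.66. The outer piece was thus 1.43 (1.23 to 1.67), 1.80 (1.45 to 2.25) and 2.62 (2.44 to 2.81) times the inner piece, where intervals cover counting error only.

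On 8q the inner 20.2 Mb were sparse and the outer 79.0 Mb dense in each list. KDM3B of HCT116/Scrsh had 52 inner and 521 outer regions, with ratios of 0.63 and 1.39, and KDM3B of HCT116/ABsh-1 had 16 and 237, with 0.46 and 1.45. H3K9me2 of HCT116/Scrsh had 32 and 621, with 0.54 and 2.49, and H3K9me2 of HCT116/ABsh-1 had 141 and 2412, with 0.70 and 1.58. The outer over inner ratio in the 3 lists that did not set the split was 2.20 (1.65 to 2.98), 3.17 (1.91 to 5.63) and 2.27 (1.92 to 2.71). Within the outer piece, the 5 Mb from 65 to 70 Mb of distance along 8q were almost bare, with 1 KDM3B region in HCT116/Scrsh where 7.03 were expected and 0 in the other lists. A count of 0 allows a ratio of up to 1.20 for KDM3B of HCT116/ABsh-1, 0.53 for H3K9me2 of HCT116/Scrsh and 0.73 for H3K9me2 of HCT116/ABsh-1.

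On 10q the change was a band rather than a single step. In the outer piece from 100 Mb the ratio was 2.42 for H3K9me2 of HCT116/Scrsh, 1.20 and 1.56 for KDM3B, and 1.19 for H3K9me2 of HCT116/ABsh-1. Split by its own values, each of the 3 other lists changed most at 130 Mb, and there it fell. That was the last boundary that the search allowed, about 5 Mb from the arm end, so the place of the fall was not located. KDM3B went from 1.19 to 0.06 in HCT116/Scrsh, where 4 of 654 regions lay beyond 130 Mb, and from 1.48 to 0.17 in HCT116/ABsh-1, where 5 of 368 did. H3K9me2 of HCT116/ABsh-1 went from 1.14 to 0.24. With the part beyond 130 Mb set aside, the split of 3 lists fell at 100 Mb, and between 100 and 130 Mb the ratios were 1.98 for KDM3B of HCT116/ABsh-1, 3.05 for H3K9me2 of HCT116/Scrsh and 1.74 for H3K9me2 of HCT116/ABsh-1, against 1.14, 0.81 and 0.76 before 100 Mb. KDM3B of HCT116/Scrsh split at 52 Mb instead.

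On 16q the outer 9.24 Mb stood apart for H3K9me2. H3K9me2 of HCT116/Scrsh had 262 of its 433 regions there, with a ratio of 3.66 against 1.11 in the inner piece, and H3K9me2 of HCT116/ABsh-1 had 2479 of 3841, with 2.03 against 1.03. For KDM3B the outer and inner ratios were 1.16 and 0.91 in HCT116/Scrsh and 1.60 and 0.83 in HCT116/ABsh-1. Because arm ends can differ from the rest of an arm, the distal 10 Mb of 16q were set beside the distal 10 Mb of the reference arms. 16q ranked 3, 2, 1 and 2 of 39 there in the 4 lists. Its ratio of 3.61 for H3K9me2 of HCT116/Scrsh compared with a reference median of 0.75 and a reference maximum of 2.97. That list set the split of 16q, so its high value at this end repeats that choice. The distal 10 Mb of 8q ranked 12, 7, 9 and 5, those of 10q 38, 23, 14 and 36, and those of 17q 2, 1, 4 and 4.

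**Figure D3:**
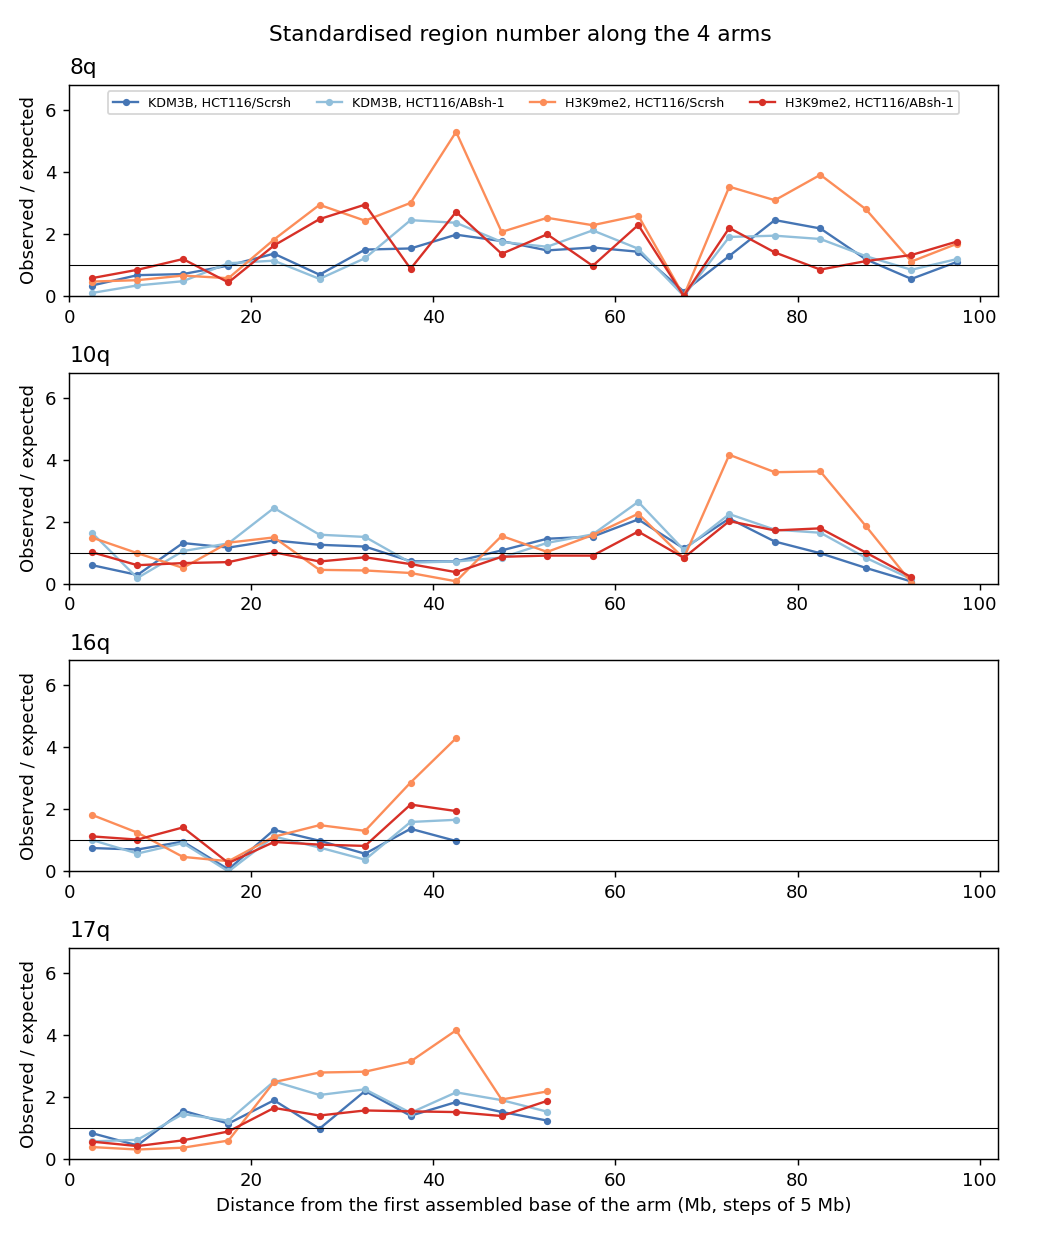
Observed over expected number of regions in steps of 5 Mb from the first assembled base of 8q, 10q, 16q and 17q, after standardisation for GC content and TSS number, with 1 line per list; the thin line marks 1. All lists were mostly below 1 over the first 20 Mb of 8q and rose after it, the last step of 10q was 0.04 to 0.21, and H3K9me2 of HCT116/Scrsh reached 4.30 at the end of 16q.

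How firmly the lists placed these changes differed between arms. Split by each list's own values, 17q changed at 37, 38, 44 and 43 Mb, 8q at 67, 59, 67 and 67 Mb, 16q at 66, 81, 81 and 81 Mb, and 10q at 130, 130, 100 and 130 Mb, in the order KDM3B of HCT116/Scrsh, KDM3B of HCT116/ABsh-1, H3K9me2 of HCT116/Scrsh and H3K9me2 of HCT116/ABsh-1. On 10q, 130 Mb was the last boundary that the search allowed, so the shared value there does not locate a change. The gain in log likelihood at the split of 17q ranked 6, 2, 1 and 1 among the 39 arms and that of 10q ranked 1, 1, 2 and 2. It ranked 12, 3, 5 and 16 on 8q and 28, 11, 4 and 3 on 16q. Changes of this kind were not confined to the 4 arms, since the lists placed their splits within 8 Mb of each other on 10 of the 35 reference arms. Over steps of 10 Mb, the correlation between lists and the signs of their ratios are given as a description. Pearson's r between KDM3B and H3K9me2 of HCT116/Scrsh was 0.62 over 31 steps of the 4 arms and 0.34 over 250 steps of the reference arms, and between KDM3B and H3K9me2 of HCT116/ABsh-1 it was 0.57 and 0.21. Lists of the same population share their input library, and neighbouring steps are not independent. All 4 lists exceeded 1 in 12 of the 31 steps (38.7%) and in 34 of the 250 reference steps (13.6%), and all 4 lay below 1 in 5 of the 31 (16.1%) and in 60 of the 250 (24%).

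**Figure D4:**
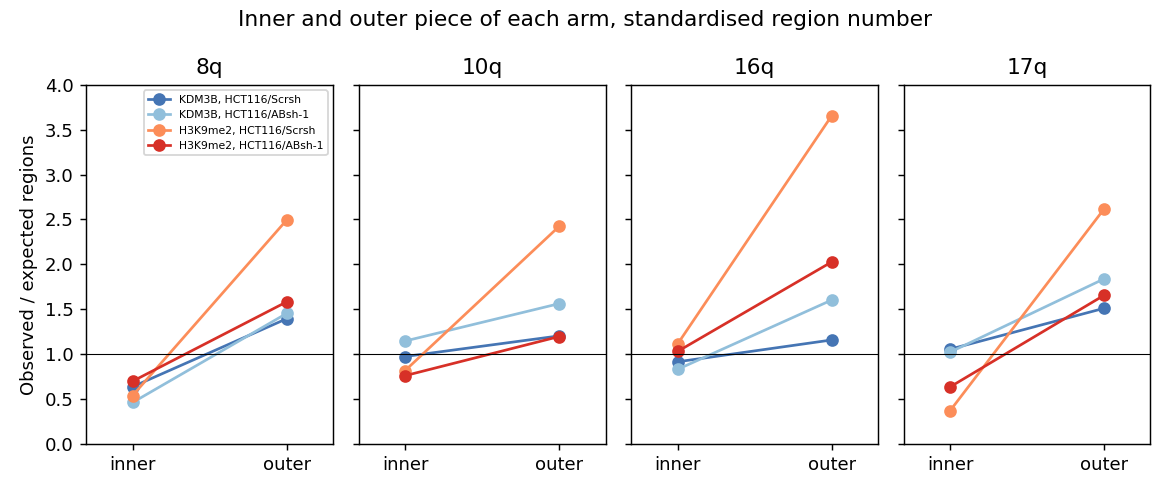
Observed over expected number of regions in the inner and outer piece of 8q, 10q, 16q and 17q for the 4 lists, split at 67, 100, 81 and 44 Mb as set by H3K9me2 of HCT116/Scrsh. The difference between pieces in H3K9me2 of HCT116/Scrsh follows from the choice of the splits. All lines of the other lists also rise from inner to outer, least for KDM3B of HCT116/Scrsh on 10q (0.97 to 1.20).

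The share of high scores was larger in the outer than in the inner piece of each arm for KDM3B of HCT116/Scrsh and for H3K9me2 of HCT116/ABsh-1, with intervals that did not overlap. The pieces were cut from these data, and neighbouring regions are not independent, so the intervals below describe the pieces and test nothing. In the outer piece of 17q, 21.7% of KDM3B regions of HCT116/Scrsh were in the top 10% of scores (18.6 to 25.1%), against 12.1% in the inner piece (8.61 to 16.7%), and for H3K9me2 of HCT116/ABsh-1 it was 21.4% (20.3 to 22.6%) against 7.13% (5.68 to 8.91%). On 16q these shares were 21.6% against 7.72% for KDM3B of HCT116/Scrsh and 21.1% against 7.34% for H3K9me2 of HCT116/ABsh-1. On 8q 0 of the 52 inner KDM3B regions of HCT116/Scrsh were in the top 10%, which allows a share of up to 5.77% by 3 counts of the total and of up to 6.88% by the Wilson limit, and 88 of 521 outer ones were (16.9%). On 10q the outer and inner shares for H3K9me2 of HCT116/ABsh-1 were 12% and 5.67%. For KDM3B of HCT116/ABsh-1 the intervals of the 2 pieces overlapped on each arm. H3K9me2 of HCT116/Scrsh on 8q went the other way, with 7 of 32 inner regions (21.9%, 11.0 to 38.8%) against 13.5% of outer ones (11.1 to 16.4%), and these intervals overlapped. In that list the intervals also overlapped on 10q (17.2% outer, 12.4% inner) and 16q (16.4% outer, 10.5% inner) but not on 17q (19.1% outer, 4.65% inner).

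With the 4 arms pooled, the number of KDM3B regions differed between the 2 populations by a smaller factor than elsewhere. So did that of H3K9me2 regions. This did not hold for KDM3B on 8q, nor for H3K9me2 on 16q and 17q. HCT116/ABsh-1 had 0.517 times as many KDM3B regions as HCT116/Scrsh on the 4 arms and 0.449 times as many on the reference arms. On 10q the ratio was 0.563, the highest of the 39 arms, on 17q it was 0.536 (rank 3), on 16q 0.508 (rank 8) and on 8q 0.442 (rank 21), and single reference arms ran from 0.353 to 0.558. For H3K9me2, HCT116/ABsh-1 had 6.77 times as many regions as HCT116/Scrsh on the 4 arms and 8.04 times as many on the reference arms. That factor was 3.91 on 8q (rank 36 of 39), 5.68 on 10q, 8.87 on 16q and 9.55 on 17q, and reference arms ran from 1.87 to 45.8. With 1 library per condition and unknown depth these ratios have no error from replicates.

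Overlap between lists on the 4 arms was low between antibodies and moderate within them. Of the KDM3B members of HCT116/Scrsh, 28.4% shared at least 1 bp with the KDM3B list of HCT116/ABsh-1 (26.6 to 30.2%, reference arms 25.5%), and 55.0% of those of HCT116/ABsh-1 shared bases with the list of HCT116/Scrsh (52.3 to 57.7%, reference arms 56.9%). Of the H3K9me2 members of HCT116/Scrsh, 41.4% overlapped the H3K9me2 list of HCT116/ABsh-1 (39.4 to 43.4%), against 34.7% on the reference arms, and 5.74% of those of HCT116/ABsh-1 overlapped one of HCT116/Scrsh, against 4.19%. By arm this share of H3K9me2 of HCT116/Scrsh was 24.7% on 8q, 38.9% on 10q, 53.3% on 16q and 53.7% on 17q. In HCT116/ABsh-1, 36 of the 1278 KDM3B members (2.82%, 2.04 to 3.88%) overlapped an H3K9me2 region of the same cells, against 0.785% on the reference arms, and 2 single reference arms had a higher share. In HCT116/Scrsh it was 3 of 2474 (0.121%, 0.041 to 0.356%), against 9 of 14748 on the reference arms (0.061%), and 7 single reference arms had a higher share. H3K9me2 regions of HCT116/ABsh-1 covered 2.09 times as many bases per assembled base on the 4 arms as on the reference arms. How much of the overlap in HCT116/ABsh-1 follows from that cover was not tested.

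The highest-scoring regions of each arm lay at known genes for KDM3B of HCT116/Scrsh and far from them in several other cases. For KDM3B of HCT116/Scrsh they were a 1100-bp region 2514 bp downstream of the nearest TSS of PLEC, which encodes the cytoskeletal linker plectin, on 8q, a 900-bp region centred 13 bp downstream of a TSS of CUTC on 10q (chr10:101491601-101492500), a 500-bp region at -2784 bp from the TSS of FOXC2, a forkhead transcription factor gene, on 16q (chr16:86597401-86597900), and an 800-bp region at -184 bp from the TSS of MRPS23, a mitochondrial ribosomal protein gene, on 17q (chr17:55927201-55928000). The last 3 overlapped the KDM3B list of HCT116/ABsh-1. For KDM3B of HCT116/ABsh-1 the top regions of 10q and 16q lay beside the centromere, at chr10:42385101-42385300 and chr16:46427501-46427900, with a GC content of 37% and 35%, 704914 and 190464 bp from the nearest protein-coding TSS and without overlap in another list. For H3K9me2 of HCT116/ABsh-1 the top region of 16q was also the top region of that whole list, 6600 bp wide at chr16:89238201-89244800, centred in an intron of CDH15, which encodes M-cadherin. The top region of 17q was the third of that list, 4900 bp at chr17:79152001-79156900, centred in an intron of PVALEF, and that of 10q spanned the start of TLX1, a homeobox gene, over 3300 bp at chr10:102891901-102895200.

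Genes of the 4 arms were described by windows that reach 5 kb from each of their TSSs in both directions. Of 2236 protein-coding genes, 926 (41.4%) had a KDM3B region of HCT116/Scrsh in their window and 581 (26.0%) one of HCT116/ABsh-1, against 35.3% and 19.1% of the 16992 genes of the reference arms. H3K9me2 regions were in the windows of 360 genes (16.1%) in HCT116/Scrsh and of 1296 (58.0%) in HCT116/ABsh-1, against 9.78% and 49.5%. At 205 genes (9.17%) a KDM3B region was found in HCT116/Scrsh alone and an H3K9me2 region in HCT116/ABsh-1 alone, close to the share of the reference arms (1493 genes, 8.79%). On 17q, 23.5% of the 447 outer genes and 5.57% of the 395 inner genes carried H3K9me2 in HCT116/Scrsh, and 51.7% and 36.5% a KDM3B region. H3K9me2 of HCT116/Scrsh also set the split of 17q, so its contrast between pieces repeats that choice. On 16q, 96 of the 99 outer genes (97.0%) carried H3K9me2 in HCT116/ABsh-1, against 63.7% of the 284 inner genes. These differences between genes were not tested.

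Wnt target genes on the 4 arms that the study lists were MYC on 8q, DKK1 on 10q, and AXIN2, BIRC5, GAST and MSL1 on 17q. The bases of a window covered by KDM3B regions were fewer in HCT116/ABsh-1 at 4 of the 6 and more at 1, and those under H3K9me2 were more at 4 and fewer at 0. Over all 2236 protein-coding genes of the 4 arms, KDM3B cover was fewer at 745 and more at 191, and H3K9me2 cover more at 1271 and fewer at 42. At MYC, the transcription factor gene, KDM3B cover went from 2000 to 200 bases, the largest loss of any protein-coding gene of 8q, and H3K9me2 cover from 0 to 100. AXIN2, a feedback inhibitor of the pathway (chr17:63524681-63557766, minus strand), went from 400 to 0 bases of KDM3B and from 0 to 2300 of H3K9me2. Of the 2300 bases, 1700 lay in 1 region centred 24015 bp downstream of the TSS that the annotation marks as canonical. The other H3K9me2 regions were centred 3115 and 1915 bp downstream of it, and the KDM3B regions from -385 to 5015 bp. DKK1, a secreted Wnt antagonist, went from 400 to 300 bases of KDM3B and had no H3K9me2 region. At AXIN2, DKK1 and MYC the study reported more H3K9me2 after depletion, from tracks of these libraries and from ChIP-qPCR in these populations. Called regions are a different measure, so 0 bases at DKK1 and 100 at MYC do not show that the mark was unchanged there. The study took the list from a public collection of Wnt targets, and it showed the average profiles of the listed genes in these same libraries. The counts are therefore not independent evidence of a direction.

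Of 15 other Wnt pathway genes on the 4 arms, 11 had more bases covered by H3K9me2 in HCT116/ABsh-1 and 0 had fewer, and KDM3B cover was lower at 7 and higher at 2. Among all 2236 genes, H3K9me2 cover was more at 1271 and fewer at 42, and KDM3B cover fewer at 745 and more at 191. Among ligands, WNT3 went from 400 to 8853 bases of H3K9me2 and from 300 to 400 of KDM3B, and its neighbour WNT9B from 0 to 2400 of H3K9me2. Their windows adjoin and share regions. RNF43, a ubiquitin ligase that removes Wnt receptors, had 300 and 100 bases of KDM3B and 0 and 300 of H3K9me2 in HCT116/Scrsh and HCT116/ABsh-1. NKD1, an intracellular antagonist on 16q, went from 0 to 2065 bases of H3K9me2 without a KDM3B region in either population. SOX9, a transcription factor of the intestinal crypt (chr17:70117161-70122557), went from 240 to 2740 bases of H3K9me2 and from 100 to 0 of KDM3B. TCF7L2, which encodes the TCF4 factor, went from 400 to 0 bases of KDM3B and from 0 to 200 of H3K9me2. Windows hold all TSSs of a gene, so KDM3B and H3K9me2 cover need not lie at the same TSS. The KDM3B regions of TCF7L2 were centred 45 to 3245 bp downstream of its canonical TSS and its H3K9me2 regions 183945 and 190945 bp. Those of RNF43 lay at 54994 and 58844 bp, and those of NKD1 at 1144 bp and from 71994 to 77044 bp. H3K9me2 regions of SOX9 lay from -4160 to 2240 bp. FZD6 and WNT8B had no region in any list.

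Gene clusters of 17q and 16q are given beside the share of all protein-coding genes of their piece with H3K9me2 in HCT116/ABsh-1, which was 74.0% in the outer and 44.6% in the inner piece of 17q and 63.7% in the inner piece of 16q, and no difference between clusters or from these shares was tested. All 10 HOXB genes, homeobox genes that pattern the body axis, lie in the outer piece of 17q, and all 10 had H3K9me2 regions in HCT116/ABsh-1, from 900 bases at HOXB5 to 6300 at HOXB3. In HCT116/Scrsh 3 of the 10 had one, and KDM3B regions were present at 5 genes of HCT116/Scrsh and at 2 of HCT116/ABsh-1. Type I keratins are filament proteins of epithelia, and the 16 genes counted here, from KRT9 to KRT28, lie in the inner piece of 17q. Of these, 4 carried H3K9me2 in HCT116/ABsh-1. H3K9me2 cover in HCT116/ABsh-1 was more at 3 of the 16 and fewer at 2. KRT15 and KRT19 had 1400 and 1300 bases of KDM3B in HCT116/Scrsh, 200 each in HCT116/ABsh-1, and no H3K9me2 region. Of the 11 metallothionein genes, which encode metal-binding proteins and lie in the inner piece of 16q, 8 carried H3K9me2 in HCT116/ABsh-1 and 1 in HCT116/Scrsh. Neighbouring genes of a cluster share regions, so these counts are not of separate regions. Among other cancer genes, FGFR2 went from 600 to 2700 bases of H3K9me2 and ERBB2 from 0 to 200, and CYLD, CTCF, BRCA1, PTK2 and TRPS1 had no H3K9me2 region in either population.

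The genes with the most added H3K9me2 cover on each arm all lay in the outer pieces. They were PTP4A3, a phosphatase gene, on 8q (0 to 15939 bases), LHPP on 10q (0 to 15826), CBFA2T3, a transcriptional corepressor gene, on 16q (600 to 28537) and SEPTIN9, a cytoskeletal septin gene, on 17q (0 to 31700). Long windows hold more bases, and that of SEPTIN9 covers 136652. The outer pieces held 368 of the 424 protein-coding genes of 8q and 245 of the 587 of 10q. On 16q they held 99 of 383 and on 17q 447 of 842. On each arm a larger share of outer than of inner genes carried H3K9me2 in HCT116/ABsh-1. Whether the place of these 4 genes went beyond that difference was not tested. The largest losses of KDM3B cover were at MYC, at PPRC1, a coactivator gene, on 10q (1500 to 200 bases), at OSGIN1 on 16q (1800 to 700) and at SEPTIN9 (2700 to 400).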

How the data were processed

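ChIP-seq lists of KDM3B and H3K9me2 in the populations HCT116/Scrsh and HCT116/ABsh-1 were analysed, with 1 library per list. The authors mapped 50-bp reads to hg19 with Bowtie, whose version is not given in the sources used here, kept unique positions and compared ChIP with input reads in 100-bp windows by Poisson p-values. Each deposited list gives the position and the score of a region, a whole number of unstated meaning. The input libraries were not analysed here, so depth is unknown and intervals cover counting error only.

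Regions were assigned to arms by their centre, which gave the same members as their starts, and 39 autosomal arms with at least 5 Mb of assembled bases were used. Expected numbers came from 10-kb bins in 10 classes of GC content and 3 of TSS number (0, 1 to 2, 3 or more) with GENCODE release 44 lifted to hg19. Arms and pooled arms were compared by two-sided exact binomial tests with Benjamini-Hochberg adjustment. Simulated lists with known ratios were used to test the calculation. Python 3.11.15, numpy 2.4.6, pandas 2.3.3 and scipy 1.17.1 were used.

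The members, lists and genes were chosen with earlier results of these data known. Named genes were those nearest the highest-scoring region per arm and list, those with the largest gain of H3K9me2 or loss of KDM3B cover per arm, and fixed lists of Wnt genes, gene clusters and cancer genes. The splits of arms were added after the data were seen. Only some of the highest-scoring regions are described with their nearest gene, and results for 2 genes are not reported here.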

Additional observations from a re-analysis of the deposited data

How the results depend on the processing

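The pooled density of regions on 8q, 10q, 16q and 17q was recomputed in 92 alternatives over the 8 pooled ratios, 4 per assembled base and 4 standardised. None reversed, and 88 kept their direction and an exact p under 0.05. The 4 others are values without a test. Covered bases in place of region numbers gave ratios of 1.50 for KDM3B of HCT116/Scrsh, 1.73 for KDM3B of HCT116/ABsh-1, 2.25 for H3K9me2 of HCT116/Scrsh and 2.09 for H3K9me2 of HCT116/ABsh-1, each above the interval of the ratio of numbers. Covered bases also count width. In these lists the mean width was 196, 175, 155 and 360 bp on the 4 arms and 181, 160, 143 and 302 bp on the reference arms. Why members were wider was not tested. Among the tested alternatives, the standardised ratio ran from 1.11 (without 17q) to 1.46 for KDM3B of HCT116/Scrsh, from 1.25 (without 17q) to 1.70 for KDM3B of HCT116/ABsh-1, from 1.72 (without 8q) to 3.89 for H3K9me2 of HCT116/Scrsh and from 1.19 (regions under 1 kb apart merged) to 1.67 for H3K9me2 of HCT116/ABsh-1. The highest value was in each list that with the short arms of the same chromosomes as the only reference, and for H3K9me2 of HCT116/Scrsh it moved the ratio by more than 1.5 times. The 50% of regions with the highest score gave 1.38, 1.57, 2.64 and 1.44. Leaving out any 1 of the 4 arms changed neither the direction nor the call at an exact p under 0.05. That test treats regions as independent, and it also called 13 to 30 of the 35 reference arms in each list after standardisation. Passing it therefore does not place a ratio outside the spread over arms. No paired analysis was possible because each condition has 1 library and the labels give no replicate numbers. Depth, input coverage and copy number were not available to this comparison, so their part in the densities was not tested.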
